A study of Mus musculus with 16 samples.

Results

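Gastrocnemius muscle of N17182Q transgenic mice given the histone deacetylase inhibitor 4b was compared with that of N17182Q transgenic mice given vehicle. The comparison rests on 7 of the 16 bead arrays of the series, 3 from treated and 4 from vehicle-treated animals, chosen by the animals' labels, and on the 13706 of 25697 probes that were detected on at least 3 of the 16 arrays (detection p under 0.05). Taking the brightest of these probes for each gene left 10295 rows, 9521 of them with a gene symbol. All mice were of the B6C3F1/J strain, and every animal in this comparison was labelled Tg/+. The other 9 arrays came from wild-type (wt) mice of the same strain, 4 with vehicle and 5 with 4b, and served to estimate the spread and to set the response of the other genotype beside that of the transgenic mice. The labels state no dose, route, duration, age or sex. N17182Q mice are known to express an amino-terminal piece of human huntingtin with a long glutamine run, under the promoter of the mouse prion protein gene, so that the fragment is made in brain and in many other tissues. Each array was labelled with an animal number of its own and was taken as 1 animal.

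Histone deacetylases remove acetyl groups from lysines of histones and of other proteins. Compounds that block them raise acetylation and change the transcription of many genes, in both directions. In skeletal muscle the class IIa members, which include Hdac4 and Hdac5, are known to bind MEF2 transcription factors and hold back their targets, and mutant huntingtin is known to cause loss of muscle mass. The genes of muscle wasting include the ubiquitin ligases Trim63 (MuRF1) and Fbxo32 (atrogin-1), the proteasome and the autophagy machinery, which FoxO factors and the glucocorticoid receptor are known to control.

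Values are log2 normalized intensities, and differences are 4b minus vehicle with the standard error (SE) of the limma fit. No gene passed the adjusted p threshold of 0.05 in that fit (0 of 10295, or 0%). Without adjustment, 1520 genes had p under 0.05 (14.8%), 819 of them higher with 4b (7.96%) and 701 lower (6.81%), and the ordinary test without variance moderation called 3 after adjustment. Other settings of background, scaling, filter and covariates called 0 to 4, while limma's array weights, which down-weight arrays that deviate from their group, called 1776. In that weighted fit 4b animals 1 to 3 had weights of 0.63, 3.92 and 0.52, so the treated mean rested mostly on 4b animal 2. When arrays were scaled to a common median in place of quantile normalization, 74.2% of the genes with p under 0.05 were higher with 4b, against 53.9% with quantile normalization. The 3 treated arrays lay wholly above the 4 vehicle arrays for 499 genes (4.85%) and wholly below them for 384 (3.73%). Over all rows 47.8% of the differences lay above 0 and 52.2% below 0. The counts in the gene lists below are to be read against these shares of all rows. The genes below are therefore described by their values, and a stated adjusted p comes from the limma fit with Benjamini-Hochberg adjustment over all rows.

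Array quality was similar in both groups, with 44.1% to 50.3% of probes detected and pairwise correlations of 0.928 to 0.984 over the 7 arrays. Muscle identity was plain in every animal: Tnni2, the fast-fibre troponin I, lay between 14.62 and 14.97. Vehicle animal 1 and 4b animal 3 stood closest to the opposite group on the leading principal component (37.9% of the variance), with vehicle animals 1 to 4 at -22.9, 33.8, 16.4 and 37.2 and 4b animals 1 to 3 at -36.3, -30.7 and 2.50. The number of genes called was 310 without vehicle animal 1 and 419 without 4b animal 3, and 4 without vehicle animal 3, while leaving out any other transgenic array gave 0 or 1. Xist was high in vehicle animal 4 and in 4b animals 1 and 3, so the vehicle group held 3 animals with a low Xist level and the 4b group 1. The Y-linked gene Eif2s3y was low in the animals with high Xist and high in the others. By these genes the sexes were unevenly split, so sex was partly confounded with treatment. With the Xist level as a covariate 0 genes were called. The main fit also called 0, so this count cannot separate sex from treatment. Without adjustment, the fit with the covariate had 911 genes higher and 735 lower at p under 0.05, against 819 and 701 in the main fit.

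The smallest p in the comparison belonged to Nfkbib, which encodes IkappaB-beta, a protein that holds NF-kappaB dimers in the cytoplasm. Its level was 6.98, 6.66, 7.04 and 6.77 in vehicle animals 1 to 4 and 8.07, 8.07 and 7.67 in 4b animals 1 to 3. The groups did not overlap, and vehicle animal 1 and 4b animal 3 both lay with their own group. The difference was 1.07 ± 0.16 (SE, n = 3 and 4), or 2.1-fold, with an adjusted p of 0.0502. When log2 was taken before the quantile step the adjusted p fell just below the threshold and Nfkbib was the 1 gene called. In wild-type mice the difference was -0.31 ± 0.14, and the difference between the genotypes' responses was 1.38 ± 0.21 (adjusted p = 0.0731). The 250 bases before its transcription start, from the RefSeq promoter table (GRCm38.p6, chr7:28766645-28766894, minus strand), are shown because no other gene separated the groups with a smaller p; no match to a consensus NF-kappaB site was found in them on either strand, against 1.49% of the 7709 promoters of tested genes that held one.
Nfkbib: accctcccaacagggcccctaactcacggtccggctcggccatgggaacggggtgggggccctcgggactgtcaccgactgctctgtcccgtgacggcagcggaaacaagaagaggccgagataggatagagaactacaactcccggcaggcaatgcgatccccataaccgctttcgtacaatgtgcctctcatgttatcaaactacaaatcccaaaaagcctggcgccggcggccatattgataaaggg

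Of the 22 tested NF-kappaB subunits, inhibitors and upstream kinases, 3 were higher at p under 0.05 and 0 lower, 17 lay above 0, and the median difference was 0.24, against -0.02 over all tested rows. Besides Nfkbib these were Tnip2, an A20-binding inhibitor of the pathway, and Nkiras2, a Ras-like protein that binds IkappaB-beta. Nkiras2 was 9.88, 9.30, 9.46 and 8.89 with vehicle and 10.19, 10.14 and 9.85 with 4b, a difference of 0.68 ± 0.23 (adjusted p = 0.207), and only vehicle animal 1 reached the treated range. Tnip2 differed by 0.72 ± 0.20 (adjusted p = 0.159), but its second probe gave -0.19. Nfkbia, which encodes IkappaB-alpha and is itself an NF-kappaB target, was 10.95, 9.40, 10.22 and 9.91 with vehicle and 10.95, 10.59 and 10.40 with 4b (0.52 ± 0.30, adjusted p = 0.434). The subunits Rela (0.28 ± 0.20), Relb (0.19 ± 0.22) and Nfkb2 (0.01 ± 0.18, or -0.01 with median scaling) overlapped between the groups. The count of 3 lay between 3 and 6 when each transgenic array was left out in turn, with 5 without vehicle animal 1 and 6 without 4b animal 3.

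Ulk1, the kinase that starts autophagy, had the second smallest p among the genes higher with 4b. Its level was 9.75, 9.64, 10.12 and 9.49 with vehicle and 11.10, 10.87 and 10.75 with 4b, so the groups were more than 0.5 log2 units apart at their closest. The difference was 1.16 ± 0.19 (adjusted p = 0.0859), its second probe gave 1.14, and in wild-type mice the difference was -0.15 ± 0.17. Gfer, a sulfhydryl oxidase of the mitochondrial intermembrane space, came next. It was 10.83, 10.75, 10.98 and 10.96 with vehicle and 11.71, 11.77 and 11.41 with 4b (0.75 ± 0.14, adjusted p = 0.136). Vehicle-treated transgenic mice had less Gfer than vehicle-treated wild-type mice (-0.78, adjusted p = 0.0047), and the 4b mean of 11.63 lay beside the wild-type vehicle mean of 11.66. Both of these differences use the same 4 vehicle-treated transgenic arrays.

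Hbegf, a heparin-binding growth factor of the EGF family, showed the largest difference among the 15 genes with the smallest p on the higher side. It was 8.23, 10.26, 7.84 and 6.83 with vehicle and 11.23, 11.01 and 11.17 with 4b. The treated animals were within 0.3 log2 units of each other while the vehicle animals spread over more than 3, and the difference was 2.85 ± 0.62, or 7.19-fold (adjusted p = 0.136). In wild-type mice it was -0.72 ± 0.54. Osbp2, an oxysterol-binding protein, was 6.12, 4.91, 5.51 and 5.25 against 6.52, 6.88 and 6.24, a difference of 1.10 ± 0.23. Rassf1, a tumour suppressor that feeds the Hippo pathway, was 10.26, 9.77, 9.80 and 9.92 against 11.55, 11.20 and 10.42, a difference of 1.12 ± 0.24, with 0.87 for its second probe. The groups did not overlap for either gene, although 4b animal 3 lay nearest to the vehicle range in both.

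The other leading genes on the higher side have varied roles. Riox1, a ribosomal oxygenase and histone demethylase of the nucleolus, differed by 0.86 ± 0.17, Wdr3, a factor of small-subunit ribosome assembly, by 0.85 ± 0.18, Nepro, a nucleolar protein, by 1.35 ± 0.30 and Mrps6, a subunit of the mitochondrial ribosome, by 0.75 ± 0.16. Wdr3 was 5.20, 5.40, 5.10 and 5.66 with vehicle and 6.18, 6.10 and 6.27 with 4b, and was detected on 2 of the 4 vehicle arrays. Ube4b, a ubiquitin chain elongation factor, was 10.22, 9.98, 10.20 and 9.92 against 10.90, 10.81 and 10.59 (0.69 ± 0.15). Bet1l, a Golgi SNARE, differed by 0.89 ± 0.19, Kifbp, a kinesin-binding protein, by 0.90 ± 0.19, Zfp574, a zinc finger protein, by 0.57 ± 0.12 and Gzmm, a granule serine protease, by 1.07 ± 0.23. All of these 9 genes had an adjusted p of 0.136 and no overlap between the groups, and in wild-type mice their differences ran from -0.14 to 0.24.

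**Figure D1:**
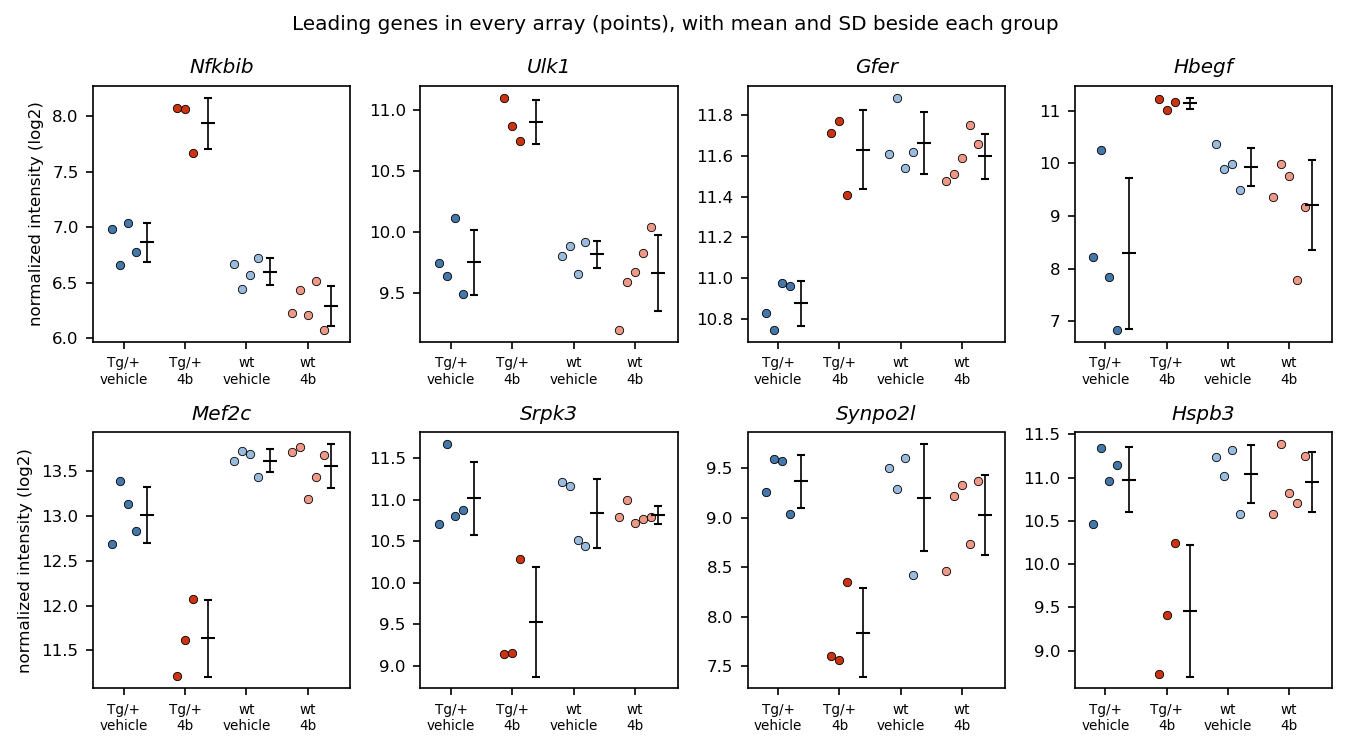
Normalized intensity (log2, vertical axes) of 8 leading genes in all 16 arrays, 1 point per animal, grouped by genotype (Tg/+ or wt) and treatment (vehicle or 4b), with group mean and SD as bars. In transgenic mice Nfkbib, Ulk1, Gfer and Hbegf were higher and Mef2c, Srpk3, Synpo2l and Hspb3 lower with 4b without overlap, while the wild-type groups overlapped.

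On the lower side the smallest p belonged to Mef2c, a MADS-box transcription factor that drives muscle structural genes. Its level was 12.68, 13.39, 13.13 and 12.84 with vehicle and 11.22, 11.61 and 12.08 with 4b. The highest treated animal lay 0.6 log2 units under the lowest vehicle animal, and the difference was -1.38 ± 0.22, or 2.6-fold lower (adjusted p = 0.0637). All 3 of its probes were lower, by -1.23 to -1.44, and in wild-type mice the difference was -0.06 ± 0.19.

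A further 3 of the 15 leading genes on the lower side are muscle genes whose upstream sequence held a MEF2 site. Srpk3, a muscle kinase that is known in mice to be a MEF2 target, was 10.71, 11.67, 10.81 and 10.88 with vehicle and 9.15, 9.15 and 10.29 with 4b (-1.49 ± 0.30). Synpo2l, a Z-disc protein, was 9.25, 9.59, 9.57 and 9.04 against 7.60, 7.56 and 8.35 (-1.53 ± 0.30). Hspb3, a small heat shock protein made mainly in muscle, was 10.46, 11.34, 10.96 and 11.15 against 8.72, 9.41 and 10.24 (-1.52 ± 0.32). None of the 3 overlapped between the groups, 4b animal 3 lay nearest to the vehicle range in each, each adjusted p was 0.136, and the differences in wild-type mice were -0.02, -0.18 and -0.09. Of the 11 leading lower genes that the promoter table lists, 3 held a MEF2 site in the 250 bases before the start, against 0 of the 12 leading higher genes and 1.85% of the promoters of tested genes (143 of 7709). The site was searched on both strands and only in the first start listed for each gene, and a match says nothing about binding. The tested genes are not limited to muscle genes as these 3 are, so the 1.85% is not a matched background. Whether less Mef2c lowered these genes was not tested.

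The promoters of these 3 genes are shown with the MEF2 site in capitals, 5′ to 3′ on the gene's strand, from GRCm38.p6: Srpk3 from chrX:73774155-73774404 on the plus strand, Synpo2l from chr14:20668355-20668604 on the minus strand and Hspb3 from chr13:113663677-113663926 on the minus strand. The site begins at base -67 of Srpk3, -109 of Synpo2l and -12 of Hspb3, counted from the start.
Srpk3: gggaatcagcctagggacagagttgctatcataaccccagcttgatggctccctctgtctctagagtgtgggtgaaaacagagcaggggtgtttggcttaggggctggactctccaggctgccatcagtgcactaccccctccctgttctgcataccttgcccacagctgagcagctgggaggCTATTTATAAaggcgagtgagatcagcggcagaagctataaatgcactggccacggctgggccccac
Synpo2l: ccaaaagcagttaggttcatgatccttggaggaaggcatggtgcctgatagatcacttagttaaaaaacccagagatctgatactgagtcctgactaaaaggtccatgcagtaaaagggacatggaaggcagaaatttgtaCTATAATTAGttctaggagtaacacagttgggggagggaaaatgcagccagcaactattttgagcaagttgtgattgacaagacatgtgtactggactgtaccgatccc
Hspb3: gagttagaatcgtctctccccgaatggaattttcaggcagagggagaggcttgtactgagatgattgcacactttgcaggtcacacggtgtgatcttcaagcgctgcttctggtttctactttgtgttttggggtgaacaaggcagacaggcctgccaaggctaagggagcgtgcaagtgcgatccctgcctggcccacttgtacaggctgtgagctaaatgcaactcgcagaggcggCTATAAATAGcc

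Other leading lower genes have more general roles. Dffa, the inhibitor and chaperone of the apoptotic DNase, was 7.96, 8.10, 7.97 and 7.55 with vehicle and 5.98, 7.01 and 6.86 with 4b (-1.28 ± 0.25). Dynll2, a light chain of dynein and myosin V, was 9.29, 10.00, 9.54 and 9.27 against 7.63, 8.35 and 8.71 (-1.30 ± 0.26). The lowest treated animal of both was 4b animal 1, and neither gene overlapped between the groups. Nfib, a nuclear factor I transcription factor, differed by -0.89 ± 0.18, Cul7, a scaffold of a ubiquitin ligase, by -0.88 ± 0.19, Prkg1, the cyclic GMP-dependent kinase, by -1.06 ± 0.23 and Stard3nl, a late endosome protein, by -0.88 ± 0.19. Cd28, best known as a T-cell costimulatory receptor, was 7.20, 8.11, 7.23 and 7.79 against 5.95, 6.67 and 5.83 (-1.43 ± 0.32), with -1.02 and -0.86 from its other probes.

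For 3 of the leading lower genes no treated array was above background, so their change is bounded only. Zfp985, a zinc finger gene, was 6.51, 8.20, 7.29 and 7.25 with vehicle and was not above background with 4b, which put it at least 3.65-fold lower. Scube2, a secreted protein of Hedgehog release, was at least 1.41-fold lower and Cbx8, a Polycomb subunit, at least 1.58-fold lower, each detected on 3 of 4 vehicle arrays. These bounds set the vehicle mean against the lowest signal of any detected probe on each treated array, or the probe's own value where that was higher. Zfp979, another zinc finger gene, was detected on all 7 arrays and differed by -1.06 ± 0.22.

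**Figure D2:**
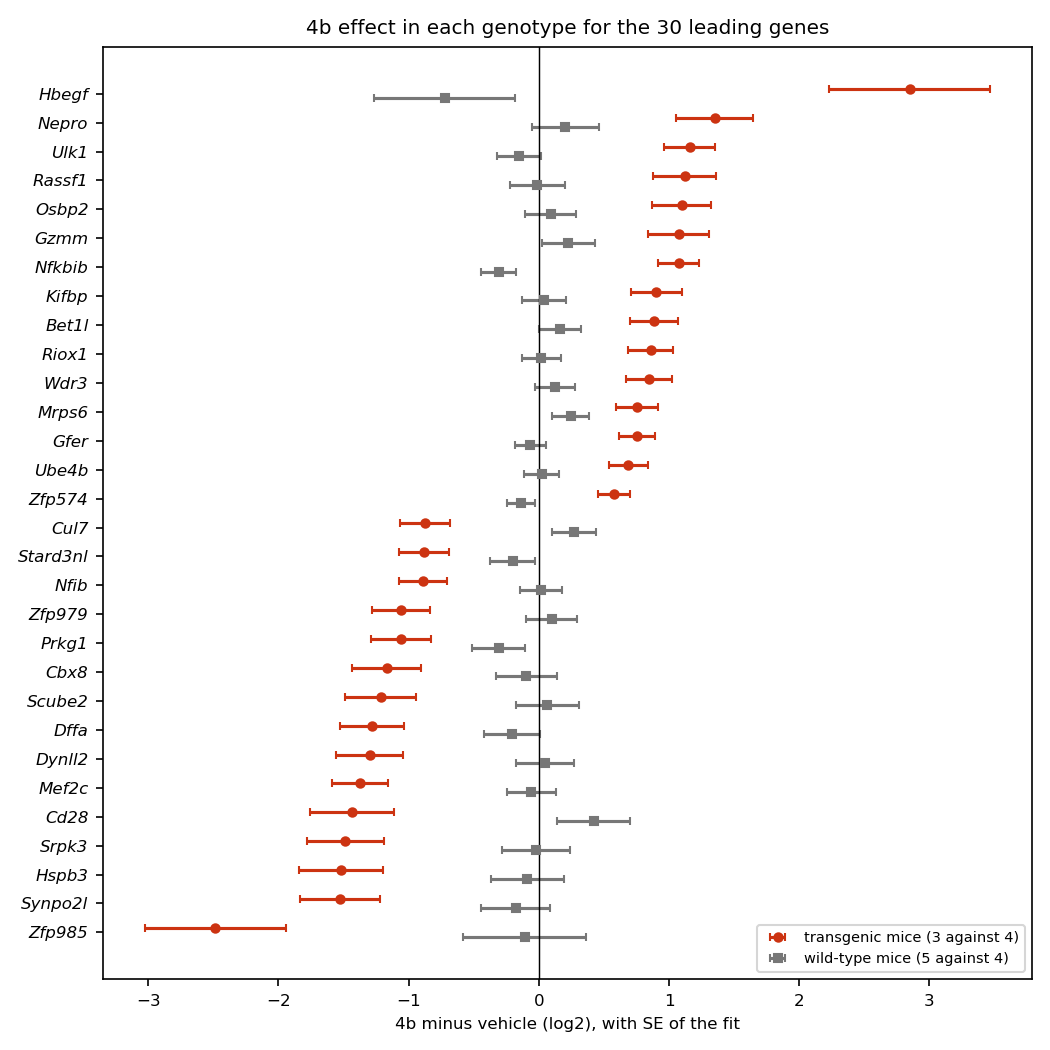
Difference between 4b and vehicle (log2, horizontal axis) with its SE for the 15 leading genes in each direction, in transgenic mice (circles, 3 against 4 arrays) and in wild-type mice (squares, 5 against 4 arrays). In transgenic mice Hbegf stood at 2.85 and Synpo2l at -1.53, while in wild-type mice the values ran from -0.72 for Hbegf to 0.42 for Cd28; the fitted values of Zfp985, Scube2 and Cbx8 rest on treated arrays not above background and are bounds only.

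The 30 leading genes were picked for small p in transgenic mice, so their smaller values in wild-type mice are a description. The response of the genotypes was compared over all genes by the interaction term of the limma fit. No gene passed (0 of 10295, 0%), and 1039 (10.1%) had an unadjusted p under 0.05. In wild-type mice alone 0 genes (0%) were called for 4b and 277 (2.69%) had an unadjusted p under 0.05.

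Of the 18 tested atrophy ligases and FoxO genes, 5 were higher at p under 0.05 and 0 lower. Trim63 was 12.35, 10.50, 11.74 and 11.08 with vehicle and 13.29, 12.76 and 12.33 with 4b (1.38 ± 0.44, adjusted p = 0.188). Fbxo32 was 13.24, 10.56, 12.82 and 11.74 against 14.44, 13.85 and 13.07 (1.70 ± 0.66, adjusted p = 0.258), with all 3 probes between 1.504 and 1.81. In both genes vehicle animal 1 exceeded 4b animal 3, so the groups overlapped. Fbxo31, an F-box protein of cell-cycle arrest, differed by 1.18 ± 0.34, Foxo1, a forkhead factor of the wasting programme, by 1.09 ± 0.33 and Mul1, a mitochondrial ubiquitin ligase, by 1.36 ± 0.54. The median of the list was 0.08, and the count was 3 to 5 when each transgenic array was left out in turn, 3 without vehicle animal 2 and without 4b animal 2. The lower count was 4 without 4b animal 3 and 0 without any other transgenic array.

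The upstream sequence of Trim63 is shown because it held, side by side, a match to the glucocorticoid response element and a FoxO motif GTAAACA on the opposite strand (first and second run of capitals, beginning at bases -208 and -194; GRCm38.p6, chr4:134314870-134315119, plus strand). Among the promoters of tested genes 0.324% held the former and 2.15% the latter.
Trim63: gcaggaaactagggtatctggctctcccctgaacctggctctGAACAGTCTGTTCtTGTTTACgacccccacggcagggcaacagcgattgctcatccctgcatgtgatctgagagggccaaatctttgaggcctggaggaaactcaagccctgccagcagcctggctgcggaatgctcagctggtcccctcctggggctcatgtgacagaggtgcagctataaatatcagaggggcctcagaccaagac

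Autophagy and lysosome genes showed 9 of 31 members higher and 0 lower at p under 0.05, with a median of 0.21 and 24 members above 0. Beside Ulk1, the lysosomal proteases Ctsl and Ctsz did not overlap between the groups. Ctsl was 7.32, 6.39, 7.55 and 7.24 with vehicle and 8.25, 8.73 and 8.27 with 4b (1.29 ± 0.33, adjusted p = 0.154), and Ctsz differed by 0.73 ± 0.26, with 0.42 for its second probe. Gabarapl1, an ATG8 protein of the autophagosome, was 11.32, 10.30, 10.60 and 10.58 against 12.67, 12.04 and 10.98 (1.19 ± 0.36), and here vehicle animal 1 lay above 4b animal 3. Map1lc3b, the LC3 protein, differed by 0.52 ± 0.21 without overlap, and Sqstm1, the p62 cargo receptor, by 0.64 ± 0.30. The count was 5 to 10 when each array was left out, lowest without 4b animal 1 or 2 and highest without 4b animal 3.

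Among 33 proteasome subunits, 10 were higher and 2 lower at p under 0.05, and 29 lay above 0 with a median of 0.18. Psmc2, an ATPase of the 19S cap, was 14.01, 13.70, 13.61 and 13.74 with vehicle and 14.69, 14.54 and 13.99 with 4b (0.64 ± 0.17, adjusted p = 0.154). The catalytic-ring subunit Psmb4 (0.37 ± 0.12) did not overlap, and Psma7 (0.79 ± 0.30) did. The 2 lower members were Psme1 (-0.75 ± 0.24) and Psme2 (-0.49 ± 0.18), the subunits of the interferon-inducible PA28 activator, which is not part of the 19S cap. Psme2 was 9.41, 9.16, 8.91 and 9.05 against 8.53, 8.77 and 8.62, without overlap. The count of higher subunits ran from 2 without 4b animal 1 to 14 without 4b animal 3, with 3 without vehicle animal 4, 3 without 4b animal 2 and 4 without vehicle animal 2.

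Translation factors were also higher in 8 of 32 members and lower in 0 (median 0.16). Eif2b5, the catalytic subunit of the exchange factor eIF2B, was 12.17, 11.73, 11.99 and 11.61 with vehicle and 12.48, 12.25 and 12.30 with 4b (0.47 ± 0.16, adjusted p = 0.209), and its partner Eif2b1 differed by 0.83 ± 0.29. The former did not overlap between the groups and the latter did. Cytosolic ribosomal proteins, in contrast, had 1 of 52 members higher and 0 lower, with a median of -0.03. For translation factors the count ran from 2 without 4b animal 1 to 10 without 4b animal 3, with 4 without 4b animal 2 and 5 without vehicle animal 2 or 4.

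**Figure D3:**
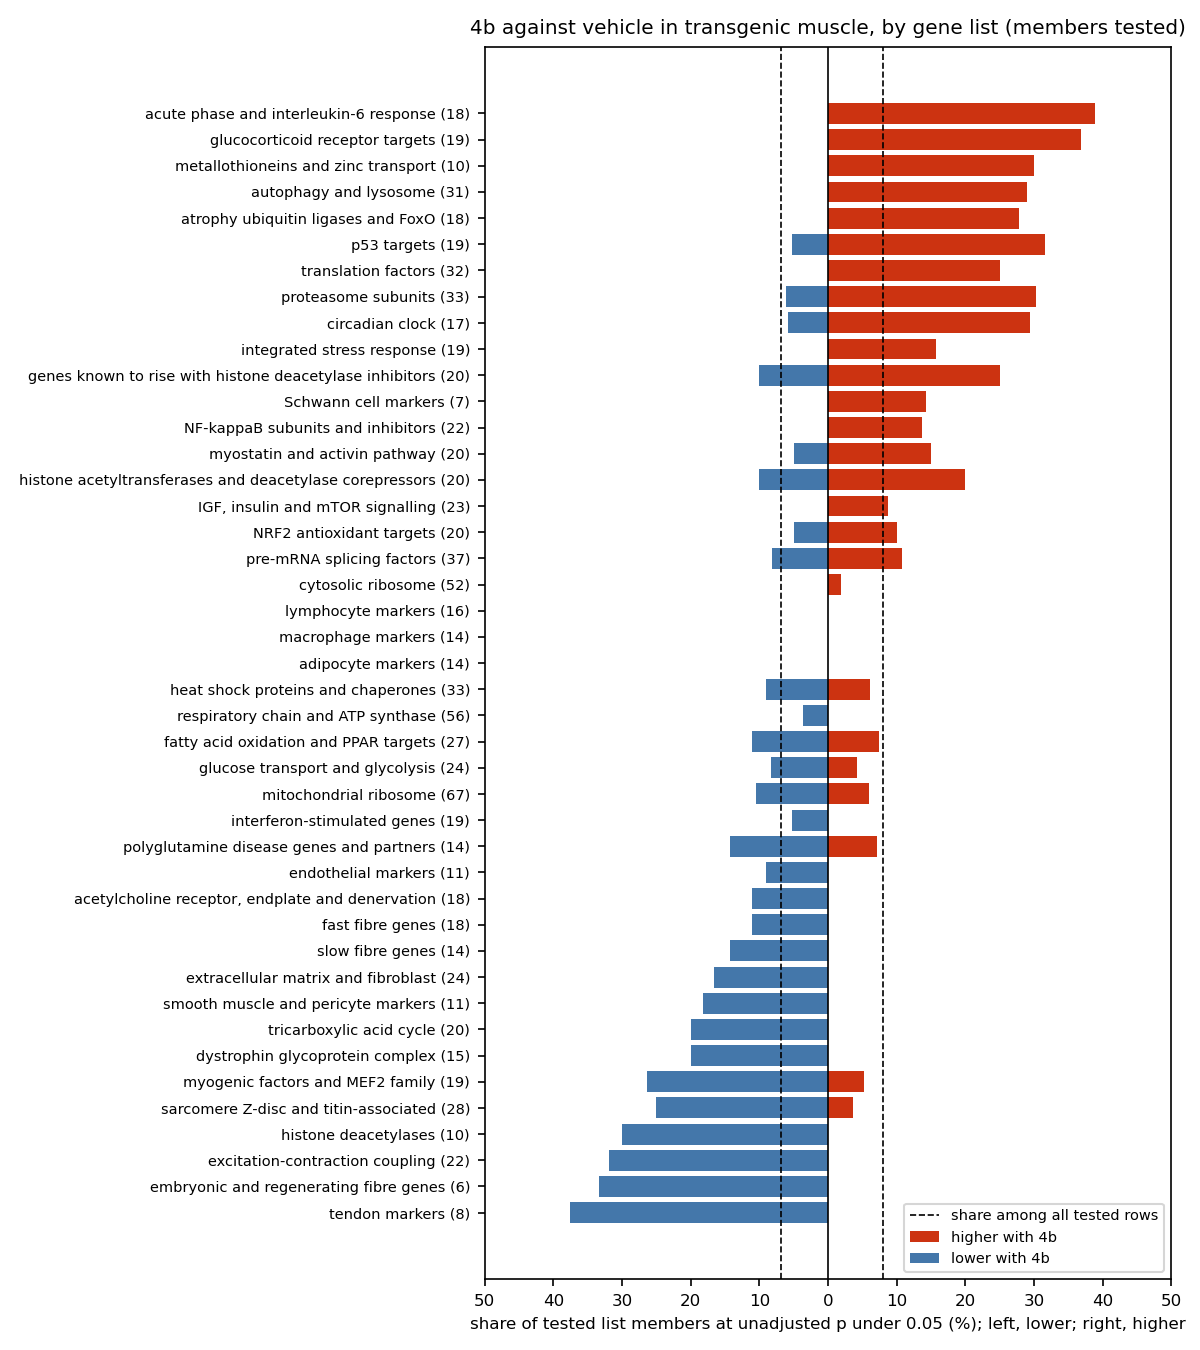
Share of the tested members of each of 43 gene lists with an unadjusted p under 0.05 (horizontal axis, %), higher with 4b to the right and lower to the left; the dashed lines mark the shares over all tested rows, 7.96% and 6.81%. Acute phase and glucocorticoid target lists reach farthest to the right, and tendon, embryonic fibre and excitation-contraction coupling lists farthest to the left.

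Of 19 glucocorticoid targets, 7 were higher at p under 0.05 (36.8%, against 7.96% over all rows) and 0 lower, with a median of 0.97 and 18 members above 0. In wild-type mice their median was 0.08. Per1, a clock repressor with glucocorticoid response elements known in mice, was 10.71, 9.34, 10.72 and 9.79 with vehicle and 11.07, 11.30 and 11.40 with 4b (1.12 ± 0.36, adjusted p = 0.187), without overlap. Ddit4, an inhibitor of mTOR, was 11.85, 8.97, 11.30 and 9.23 against 12.31, 12.17 and 11.83 (1.77 ± 0.73), where vehicle animal 1 lay just above 4b animal 3. The metallothioneins Mt2 (1.52 ± 0.51) and Mt1 (0.97 ± 0.44) overlapped as well. The count of 7 ran from 3 without 4b animal 2 to 12 without vehicle animal 1, with 4 without vehicle animal 2 or 4b animal 1.

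All 18 tested acute phase and interleukin-6 response genes had a difference above 0 (median 0.73), and 7 had p under 0.05. This list shares with the glucocorticoid list the member with the largest difference of both (2.62). The mean level of the 18 genes was highest in 4b animals 1 and 2, and 3 members lay wholly above the vehicle range (16.7%, against 4.85% of all rows). Serpina3n, an acute phase protease inhibitor, was 9.54, 7.64, 8.34 and 9.33 with vehicle and 12.12, 12.18 and 8.97 with 4b (2.38 ± 0.94, adjusted p = 0.259). Socs3, the feedback inhibitor of interleukin-6 signalling, was 8.48, 7.60, 7.54 and 8.17 against 9.98, 10.62 and 8.35 (1.70 ± 0.45, adjusted p = 0.154). In both genes 4b animal 3 lay inside the vehicle range. Junb (1.48 ± 0.51), Il6ra (1.22 ± 0.45) and Osmr (0.70 ± 0.28), which encodes the oncostatin M receptor, were also at p under 0.05. The count fell to 3 without 4b animal 1, without 4b animal 2 or without vehicle animal 2, and was 9 without vehicle animal 1 or 4b animal 3.

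Clock genes differed in both directions. Of 17 tested, 5 were higher and 1 lower at p under 0.05, and 5 lay wholly above and 1 wholly below the vehicle range (8.58% of all rows did either). Clock, the activating partner of Arntl, was 11.22, 10.54, 10.57 and 10.83 with vehicle and 11.60, 11.41 and 11.28 with 4b (0.64 ± 0.22), and Rora, a nuclear receptor of the clock, differed by 0.64 ± 0.23. Ciart, a repressor of the clock, was 9.28, 7.50, 8.57 and 7.70 against 9.69, 9.96 and 9.54 (1.47 ± 0.59, adjusted p = 0.263), without overlap. Dbp, an output factor driven by Clock, was on the contrary lower, at 10.08, 12.49, 12.40 and 12.88 against 9.39, 10.06 and 11.93 (-1.503 ± 0.69). The labels do not state the time of day at which the animals were killed. The higher count ran from 3 without vehicle animal 2, 4b animal 1 or 4b animal 2 to 9 without vehicle animal 1. Ciart's upstream sequence (GRCm38.p6, chr3:95882229-95882478, minus strand) is shown for its 3 copies of the clock E-box CACGTG, in capitals, which 8.39% of the promoters of tested genes held at least once.
Ciart: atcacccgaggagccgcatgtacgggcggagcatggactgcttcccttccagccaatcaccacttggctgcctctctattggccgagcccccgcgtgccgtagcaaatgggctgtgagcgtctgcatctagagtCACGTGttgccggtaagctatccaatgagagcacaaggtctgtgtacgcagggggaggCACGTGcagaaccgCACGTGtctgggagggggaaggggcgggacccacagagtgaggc

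Genes that deacetylase inhibitors are known to induce differed in both directions. Of 20 tested, 5 were higher and 2 lower at p under 0.05, with a median of 0.04. Cdkn1a, the p21 cell-cycle inhibitor and the best known of them, was 13.23, 10.01, 11.17 and 11.05 with vehicle and 13.72, 13.68 and 12.66 with 4b. Vehicle animal 1 lay inside the treated range and the other vehicle animals below it, and the difference was 1.99 ± 0.68 (adjusted p = 0.214), with 1.83 and 2.42 from its other probes. Txnip, a redox regulator, was higher without overlap (0.87 ± 0.35). The 2 lower members were Cryab, the alphaB-crystallin chaperone (-0.87 ± 0.23), and Tgfb2 (-0.87 ± 0.27). The higher count of 5 became 2 without vehicle animal 2, 4b animal 1 or 4b animal 2.

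Among 19 p53 targets, a list that shares Cdkn1a, Gadd45a and Gadd45b with the one above, 6 were higher and 1 lower (median 0.21). Fas, the death receptor, was 9.75, 9.01, 9.13 and 9.35 with vehicle and 10.26, 10.16 and 9.94 with 4b (0.81 ± 0.22, adjusted p = 0.154). Bbc3, the BH3-only protein PUMA, differed by 0.75 ± 0.27, with 0.11 and 0.41 for its other probes, and Sesn1, a stress-induced inhibitor of mTOR signalling, by 1.10 ± 0.44. None of these 3 overlapped between the groups, while Ccng1, cyclin G1, was lower by -0.59 ± 0.24. Without 4b animal 1 the higher count was 3.

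By their brightest probes the deacetylases themselves gave small differences. Of the 10 tested, 0 were higher and 3 lower at p under 0.05, with a median of -0.12. Hdac4 was 8.87, 9.51, 9.19 and 8.57 with vehicle and 8.15, 8.21 and 8.86 with 4b (-0.63 ± 0.24, adjusted p = 0.249). Hdac2 differed by -0.42 ± 0.16 and Hdac1 by -0.46 ± 0.21. Of the 3, only Hdac1 did not overlap, at 8.14, 7.89, 8.39 and 8.49 against 7.77, 7.74 and 7.79. Hdac3, a target of the benzamide class of inhibitors, was 11.14, 11.39, 11.31 and 11.15 against 10.87, 11.0025 and 11.46 (-0.14 ± 0.16), and the sign turned with median scaling (0.0498). Hdac5 differed by 0.31 by its brightest probe, which missed p under 0.05. Its other probes gave 0.37 and 0.77, the latter at an unadjusted p under 0.05 in the limma fit on all probes. Among 20 acetyltransferases and corepressor subunits 4 were higher and 2 lower, led by Mta3, a NuRD subunit (0.71 ± 0.23, but 0.003 for its second probe), and Sin3a, the scaffold of the Sin3 corepressor (0.47 ± 0.16). The count of 3 deacetylases became 0 without 4b animal 1 or 2 and 1 without vehicle animal 3 or 4.

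Prnp, whose promoter drives the transgene, was 14.55, 15.09, 14.70 and 14.27 with vehicle and 13.99, 14.00 and 14.11 with 4b (-0.62 ± 0.18, adjusted p = 0.162). The treated animals lay below every vehicle animal and within about 0.1 of each other. Whether the probe also reads the transgene was not tested. The mouse Htt probe was dim, between 4.78 and 5.55, and did not separate the groups (-0.19 ± 0.18). Among the other genes of polyglutamine diseases, Atxn1, the ataxin-1 gene, was lower without overlap (-0.74 ± 0.24), and Tbp, the TATA-binding protein, was higher (0.36 ± 0.17).

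Of 19 myogenic and MEF2 family genes, 5 were lower and 1 higher at p under 0.05 (median -0.23). Myf6, the MRF4 factor of mature fibres, was 11.70, 12.68, 12.01 and 11.30 with vehicle and 10.43, 10.17 and 11.34 with 4b (-1.27 ± 0.33, adjusted p = 0.154), and 4b animal 3 lay just above vehicle animal 4. Smyd1, a muscle methyltransferase, was lower without overlap (-0.60 ± 0.21), and Myod1, a master regulator of the myogenic lineage, was 6.16, 7.84, 6.996 and 5.70 against 4.65, 5.09 and 6.10 (-1.39 ± 0.52), detected on 1 treated array. Mef2b, in contrast, was the 1 higher member (0.59 ± 0.26). Lower members numbered 3 to 6 when each transgenic array was left out, 3 without vehicle animal 2 or 4b animal 1.

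Excitation-contraction coupling genes had 7 of 22 members lower and 0 higher (median -0.25). Asph, whose products include junctin, was 10.58, 11.46, 11.44 and 11.38 with vehicle and 9.49, 9.18 and 11.19 with 4b (-1.27 ± 0.36, adjusted p = 0.162). Stac3, a partner of the calcium channel in the triad, differed by -0.74 ± 0.21, and Jph2, which ties the sarcoplasmic reticulum to the surface membrane, by -0.70 ± 0.29. The other probes gave -0.07 to -0.93 for Asph and -0.12 for Jph2. The brightest Jph2 probe did not overlap, at 6.56, 6.92, 6.96 and 6.36 against 5.56, 6.07 and 6.35. Orai1 and Stim1, the channel and the sensor of store-operated calcium entry, differed by -0.55 ± 0.24 and -0.40 ± 0.19. The kinase genes Camk2a (-0.69, with -0.62 and -0.57 from its other probes) and Camk2b of this list were lower as well. The calcium-binding proteins of the reticulum, Casq1 and Casq2, are counted in the fast-fibre and slow-fibre lists and not in this one. Casq1 was 9.19, 11.18, 10.67 and 10.85 against 7.62, 8.16 and 10.34 (-1.76 ± 0.53). Casq2 was 10.00, 11.03, 8.82 and 10.00 against 7.52, 7.83 and 8.82 (-1.91 ± 0.50). In Casq2 the highest treated value lay just under the lowest vehicle value. The count of 7 became 2 without vehicle animal 2, vehicle animal 3 or 4b animal 1, 3 without 4b animal 2 and 10 without 4b animal 3.

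Z-disc and titin-associated genes had 7 of 28 members lower and 1 higher (median -0.15). Ky, the kyphoscoliosis peptidase, was 9.48, 12.40, 12.32 and 12.50 with vehicle and 8.40, 9.28 and 11.39 with 4b (-1.98 ± 0.71, adjusted p = 0.232), and vehicle animal 1 lay with the treated animals. Fhl2, a LIM-domain protein, was 7.45, 7.999, 7.31 and 7.38 against 5.69, 6.79 and 7.03 (-1.03 ± 0.40), without overlap. Synm, an intermediate filament protein (-0.76 ± 0.24), Ankrd23 (-0.96 ± 0.31) and Ankrd1 (-1.68 ± 0.69), ankyrin repeat proteins of the titin spring, and Ldb3, the Z-disc protein ZASP (-0.69 ± 0.30), were lower with overlap. The 1 higher member was Fhl3 (0.96 ± 0.43). Without vehicle animal 2 or 4b animal 1 the lower count was 3, and without 4b animal 2 it was 4.

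Among the chaperones the smallest p on the lower side belonged to small heat shock proteins. Cryab was 12.97, 12.53, 12.33 and 12.92 with vehicle and 11.51, 11.67 and 12.28 with 4b (-0.87 ± 0.23, adjusted p = 0.154). Its neighbour on chromosome 9, Hspb2, was 9.35, 10.07, 9.65 and 9.78 against 8.09, 8.55 and 9.35 (-1.05 ± 0.28, adjusted p = 0.156). Both were lower without overlap, as was Hspb3, described above, which is not among the 33 genes of the chaperone list. Hspb8 (-0.56 ± 0.23) was lower with overlap. Hspd1, the mitochondrial chaperonin, also did not overlap but missed p under 0.05 (-0.25 ± 0.15). Of 33 chaperone genes 3 were lower and 2 higher, the latter being the J-domain proteins Dnajb2 (0.56 ± 0.24) and Dnajb4 (0.63 ± 0.29), whose second probe gave -0.42. These shares lie near those of all rows. The higher count was 0 without vehicle animal 2 or 4 or 4b animal 1 or 2, and the lower count was 6 without 4b animal 3 and 2 without vehicle animal 2 or 4b animal 1 or 2.

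Fibre type and endplate genes had few members at p under 0.05. Of 18 fast-fibre genes 2 were lower and 0 higher (median -0.09), namely Casq1 and Myh1, the type IIx myosin (-0.65 ± 0.28, with -0.20 for its second probe), and the fast-fibre count was 1 to 5 over the transgenic arrays left out, 5 without 4b animal 3 and 1 without vehicle animal 2, 3 or 4 or 4b animal 1 or 2. Of 14 slow-fibre genes 2 were lower, Casq2 and Fhl2, yet 9 lay above 0 with a median of 0.14, which was -0.24 without vehicle animal 3 and 0.39 without vehicle animal 4. Among 18 endplate and denervation genes 17 lay below 0, 2 of them at p under 0.05, Hdac4 and Lrp4, the agrin receptor (-0.70 ± 0.28). That count was 0 without 4b animal 1 or 2, 1 without vehicle animal 2, 3 or 4, 4 without vehicle animal 1 and 5 without 4b animal 3. All 6 tested embryonic and regenerating fibre genes lay below 0 (median -0.55), led by Myl6b, a light chain (-1.08 ± 0.34), and Actc1, the cardiac actin of developing muscle. Actc1 was 8.31, 11.93, 11.22 and 10.68 with vehicle and 6.55, 6.97 and 10.32 with 4b (-2.59 ± 0.94, adjusted p = 0.235), and vehicle animal 1 lay below 4b animal 3. Its second probe gave -0.80.

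Of 27 fatty acid oxidation and PPAR genes 3 were lower (11.1%) and 2 higher (7.41%) at p under 0.05, and 18 lay above 0 (median 0.13). The higher count was 8 without vehicle animal 1, and both counts were 0 without 4b animal 1. The lower members included the coactivators of mitochondrial biogenesis. Ppargc1a, which encodes PGC-1alpha, was 11.86, 10.11, 10.25 and 10.19 with vehicle and 9.47, 9.74 and 9.90 with 4b (-0.90 ± 0.33, adjusted p = 0.245), without overlap. Ppargc1b differed by -0.96 ± 0.36 and Esrra, the nuclear receptor they work with, by -0.58 ± 0.22, both with overlap. Ucp3, the muscle uncoupling protein, went the other way without overlap, at 10.07, 9.23, 9.16 and 9.35 against 10.46, 10.40 and 10.25 (0.92 ± 0.36). Of 20 tricarboxylic acid cycle genes 4 were lower (median -0.18), led by Dlat, a subunit of pyruvate dehydrogenase (-1.25 ± 0.37), and of 56 respiratory chain genes 2 were lower, a smaller share than the 6.81% of all rows, and 45 lay below 0 (median -0.12). Without 4b animal 3 these counts were 9 and 13. The tricarboxylic acid cycle count was 1 without 4b animal 1 or without vehicle animal 3 or 4 and 2 without vehicle animal 2, and the respiratory chain count was 0 without 4b animal 1 and 6 without vehicle animal 1. Of 67 mitochondrial ribosomal proteins 7 were lower (10.4%) and 4 higher (5.97%), near the shares of all rows. The lower count ran from 1 without vehicle animal 2 or 4b animal 1 to 14 without 4b animal 3 and 12 without vehicle animal 1.

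Myostatin and activin pathway genes were split, with 3 higher and 1 lower of 20. Inhbb, the activin B subunit, was 6.17, 5.50, 5.13 and 5.81 with vehicle and 8.25, 7.91 and 5.67 with 4b (1.62 ± 0.59), and Acvr1b, an activin receptor, was 5.21, 5.04, 5.83 and 5.10 against 7.49, 6.67 and 5.39 (1.22 ± 0.37). Both were high in 4b animals 1 and 2 and at the vehicle level in 4b animal 3. Smad3, which carries the signal to the nucleus, was lower (-0.79 ± 0.29), and without 4b animal 1 or 2 the higher count was 1. In the insulin-like growth factor list 2 of 23 members were higher (8.70%, near the 7.96% of all rows) and 0 lower at p under 0.05, with a median of 0.07. The higher count was 1 without vehicle animal 2 or 4b animal 1 or 2 and 6 without vehicle animal 1 or 4b animal 3. Its member Igfbp3, a binding protein, was 9.49, 8.06, 8.79 and 8.62 against 10.83, 9.86 and 9.53 (1.33 ± 0.37, adjusted p = 0.159), without overlap.

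**Figure D4:**
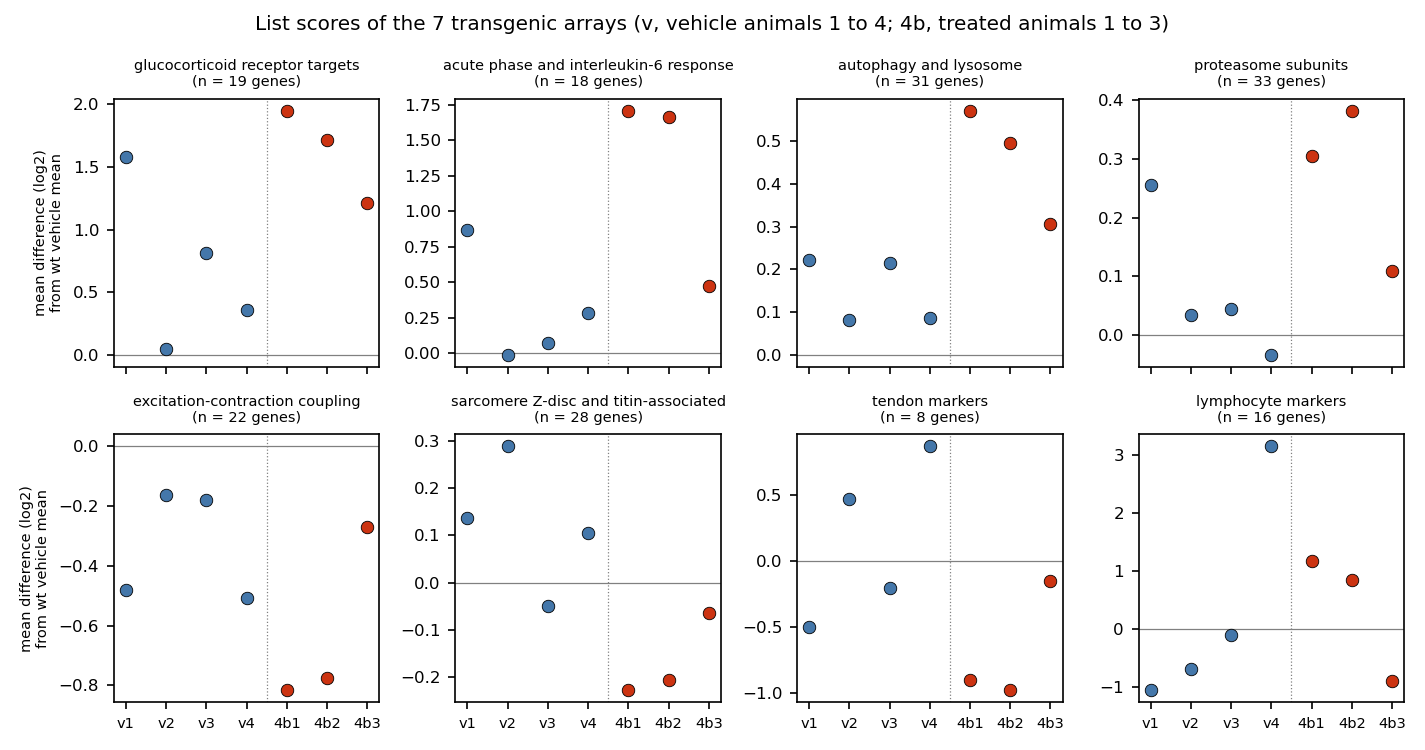
Mean difference of each list's tested genes from their wild-type vehicle mean (log2, vertical axes) in the 7 transgenic arrays, vehicle animals 1 to 4 and 4b animals 1 to 3. Glucocorticoid target scores were 1.95, 1.71 and 1.21 in the treated animals and 1.58 in vehicle animal 1, and the lymphocyte score of vehicle animal 4 was 3.15.

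Markers of cell types other than muscle fibres were measured in the same arrays, and in bulk muscle fewer cells of a type cannot be told apart from less RNA per cell. The mean lymphocyte score, over 16 tested markers, was 3.15 in vehicle animal 4, 1.17 and 0.84 in 4b animals 1 and 2, and between -1.05 and -0.10 in the others, with 0 of 16 markers at p under 0.05. Coro1a, a leukocyte actin regulator, was 7.02, 8.37, 9.52 and 12.23 with vehicle and 9.49, 9.35 and 7.51 with 4b. Macrophage and adipocyte markers also had 0 of 14 members each at p under 0.05. Of 7 Schwann cell markers 1 was higher and 0 lower, 6 lay above 0 and the median was 0.37. On that list 2 markers lay wholly above the vehicle range (28.6%, against 4.85% of all rows), and the higher count was 0 without vehicle animal 1 or 4b animal 1. The acute phase scores were 0.86, -0.01, 0.07 and 0.28 in vehicle animals 1 to 4 and 1.70, 1.66 and 0.48 in 4b animals 1 to 3. Gzmm and Cd28 are lymphocyte genes by reputation, and in vehicle animal 4 they were 6.94 and 7.79. The part of lymphocytes, macrophages and adipocytes in the acute phase result and in these 2 genes was not tested.

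All 8 tested tendon markers lay below 0 (median -0.63) and 3 had p under 0.05. Scx, the tendon transcription factor scleraxis, was 8.68, 9.01, 8.44 and 8.09 with vehicle and 6.37, 6.78 and 8.34 with 4b (-1.39 ± 0.40, adjusted p = 0.165), and Fmod, a tendon proteoglycan, differed by -1.51 ± 0.55, with -0.65 for its second probe. The tendon score was -0.90, -0.98 and -0.15 in the treated animals and -0.49, 0.48, -0.20 and 0.87 in the vehicle animals, so 4b animal 3 lay inside the vehicle range. The count of 3 tendon markers became 1 without 4b animal 1, 4b animal 2 or vehicle animal 4. Of 24 matrix and fibroblast genes 4 were lower and 0 higher (median -0.29), among them Lum and the collagen VI chains Col6a1 and Col6a2, the last not above background with 4b, and the count was 1 without vehicle animal 2 or 4, 0 without 4b animal 2 and 9 without vehicle animal 1. Of the smooth muscle and pericyte list, Smtn, smoothelin, was 11.19, 12.21, 11.80 and 11.30 against 9.45, 10.07 and 11.01 (-1.45 ± 0.36, adjusted p = 0.145) and Rgs5, a pericyte marker, was lower by -0.82 ± 0.21. Both were without overlap, while Acta2 (-0.46 ± 0.34), Pdgfrb (0.19 ± 0.22) and Cspg4 (-0.37 ± 0.24) of that list overlapped. Over the 11 tested genes of that list 2 were lower and 0 higher at p under 0.05, 4 lay above 0 and the median was -0.04. Of 11 endothelial markers 1 was lower and 0 higher, 5 lay above 0 and the median was -0.06. Whether the amount of tendon or vessel in the treated samples contributed to the lower muscle genes was not tested.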

How the data were processed

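RNA from gastrocnemius, isolated with a silica column kit and DNase I and biotin-labelled by the standard Illumina procedure per the labels' protocols, was measured on mouse bead arrays. The authors deposited an intensity and a detection p-value for each probe and array, not background-corrected so far as the values show (81.2 to 44501), and a second table of log2 values, used as an alternative. Here intensities were background-corrected by normexp from the detection p-values (offset 16), quantile-normalized and taken to log2 with limma 3.58.1 in R 4.3.3. Probes detected at p under 0.05 on at least 3 of 16 arrays were kept, and the brightest stood for its gene. limma fitted 4 group means over 16 arrays (12 residual degrees of freedom) and moderated the variances, with p-values adjusted by Benjamini-Hochberg over all 10295 rows. On simulated data for this comparison of 10295 genes, 6% of 50 genes with a log2 change of 0.5 were called, 44% at 1, 96% at 2 and 96% at 3, with 7 unchanged genes called. The simulated noise was independent between genes and had the same spread on every array. The real arrays had fitted weights from 0.504 to 3.92, so these shares need not hold for them. The number of arrays limits the precision, and replicate numbers follow accession order. Genes named are any called, the 15 with the smallest p in each direction among named genes, up to 5 per list with the smallest p, and the tested deacetylase and NF-kappaB list genes, Htt, Prnp, Xist, Eif2s3y and Cdkn1a. Outside that rule, Ccng1, Dbp, Fhl3, Ldb3, Map1lc3b, Mef2b, Orai1, Osmr, Psma7, Sesn1, Sqstm1, Stim1 and Txnip were picked from their lists after their values were seen. The genes and the 43 lists were chosen with earlier results of these data known. Some genes, such as Hdac4 and Cryab, belong to more than 1 list, so the counts of different lists are not independent results. Alternatives covered background, normalization, filter, probe choice, arrays, moderation, weights, covariates and each array left out.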

Additional observations from a re-analysis of the deposited data

Results flagged for a closer look

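In 22 of 254 named genes 1 of the 4 vehicle-treated transgenic arrays stood far from the other 3 by Dixon's criterion, which chance meets in about 1 in 20 groups. In vehicle animal 1 the level was highest for Tnip2 (7.73), Psmb4 (14.06), Psmb2 (13.13), Ppargc1a (11.86), Acadl (11.29) and Eif3a (11.005), and lowest for Ldha (13.20), Asph (10.58), Ky (9.48), Dlat (9.05), Pgam2 (13.18), Ifi27 (10.99) and Srsf3 (7.35). Vehicle animal 4 had the highest Xist (8.23), Nfkb2 (5.79), Cd37 (7.56) and Ccl19 (9.61) and the lowest Eif2s3y (4.66). Vehicle animal 3 had the highest Kifbp (6.03) and the lowest Myl6b (5.98) and Sspn (4.66), and vehicle animal 2 the highest Mrps25 (8.67).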

How the results depend on the processing

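No paired analysis was possible because the replicate numbers follow accession order and pair no animals. The count of 0 called genes became 4 without background correction, 3 with an offset of 50, 4 with the authors' deposited log2 values, 1 with log2 before quantile normalization (chosen after seeing the data), 1 without the filter, 1 with the stricter filter, 3 with the ordinary test, 1 with a trended robust prior and 1776 with array weights. It ran from 0 to 419 over the 16 arrays left out in turn, with 310 without vehicle animal 1, 419 without 4b animal 3, 4 without vehicle animal 3, 2 without wild-type 4b animal 1, 1 without vehicle animal 2 and 0 for the other 11. The count for the difference between genotypes was 1 without the filter, 90 with array weights and 0 to 17 over the arrays left out, with 17 without 4b animal 3. The causes were not tested. Of 7864 values of named genes under the alternatives, 7500 kept direction and side of the threshold, 307 newly passed it and 57, in 27 genes, turned sign. Traf2 turned to -0.0113 without background correction, -0.0120 with the authors' values and -0.205 with array weights. Median scaling turned Hdac3 to 0.0498, Nfkb2 to -0.0144 and Tab2 to 0.14. Array weights turned Hdac8 to -0.10, Nfkbie to 0.0322, Ikbkb to 0.0887, Ccr7 to 0.0066 and Mag to -0.0067. Nfkb2 was -0.0031 with the first and last 8 arrays of the deposit order as a block and -0.0087 with Xist as a covariate, which turned Eif2s3y to 0.0316. The detected share as a covariate turned Hdac11 to -0.0271, Nfkbie to 0.0925, Ikbkg to -0.0103 and Coro1a to 0.0328. Over the arrays left out, the ranges that crossed 0 were Hdac8 -0.13 to 0.19, Nfkb2 -0.10 to 0.12, Traf2 -0.26 to 0.22, Traf6 -0.0645 to 0.0858, Ccl21a -0.0110 to 1.83, Ikbkg -0.0250 to 0.0886, Htt -0.32 to 0.0495, Tnfaip3 -0.0192 to 0.81, Ccl19 -0.0936 to 1.51, Hdac10 -0.27 to 0.0846, Hdac11 -0.25 to 0.41, Tab2 -0.14 to 0.0223, Map3k7 -0.0034 to 0.21, Adipoq -1.50 to 0.0423, Tnnc1 -0.13 to 0.56, Nfkbie -0.51 to 0.35, Nfkbid -0.74 to 0.11, Car3 -0.64 to 0.0415, Tyrobp -0.50 to 0.0367, Aif1 -0.54 to 0.14, Cd37 -0.71 to 0.21 and Coro1a -1.26 to 0.48. Of 1333 list medians under the alternatives, 1306 stayed within the spread and 27, in 13 lists, moved beyond it. Signal over background limits Zfp985, Scube2, Cbx8 and Col6a2, which no treated array detected.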

Other observations

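Sspn, sarcospan of the dystrophin complex, was 11.39, 12.04, 4.66 and 11.29 in vehicle animals 1 to 4 and 4.70, 5.47 and 4.60 in 4b animals 1 to 3, so it was either above 11 or near background in each animal. Of 37 pre-mRNA splicing factors 4 were higher (10.8%) and 3 lower (8.11%) at p under 0.05, near the 7.96% and 6.81% of all rows. The higher count was 1 without vehicle animal 2 or 3 or 4b animal 1 or 2. Of 19 interferon-stimulated genes 0 were higher and 1 lower, with a median of -0.28. Without vehicle animal 1 that list had 6 lower and 18 members below 0 (median -0.53), and without vehicle animal 4 its median was 0.07. Of 19 integrated stress response genes 3 were higher and 0 lower (median 0.15), of 20 NRF2 antioxidant targets 2 were higher and 1 lower (median 0.09), and of 24 glucose transport and glycolysis genes 1 was higher and 2 lower (median -0.15). The NRF2 shares, 10% higher and 5% lower, and the glycolysis shares, 4.17% and 8.33%, lay near those of all rows. The lower glycolysis count was 0 without vehicle animal 2, 3 or 4 or 4b animal 1, 1 without 4b animal 2, 6 without vehicle animal 1 and 8 without 4b animal 3. The higher integrated stress response count was 1 without vehicle animal 2 or 4b animal 1, and the higher NRF2 count was 1 without 4b animal 1 or 2 or vehicle animal 4.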
